A study of Mus musculus with 8 samples.

Results

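Nr4a1, Nr4a2 and Nr4a3, the mouse genes of the Nr4a orphan nuclear receptors, were followed in 3T3-L1 cells given medium from human macrophage-like cells. They were found among 20668 named genes by matching each non-control probe of the array to a mouse symbol through its RefSeq transcript or its gene name, and every matching probe was kept. The family was chosen by the measured signals of these arrays, with the difference of Nr4a1 between the supernatants in view. This gave 4 of the 55681 probes, 1 for Nr4a1, 2 for Nr4a2 and 1 for Nr4a3. One-colour arrays, 8 in all and 2 to a group, measured the total RNA of 4 groups. The groups were 3T3-L1 cells given supernatant of HL-60 cells with USP2 knocked down for 3 h, supernatant of mock vector-transfected HL-60 cells for 3 h, the knockdown supernatant for 6 h and the mock supernatant for 6 h (KD and control from here on). 3T3-L1 is a mouse fibroblast line that becomes adipocyte-like under hormones, and HL-60 is a human leukemia line. All 3T3-L1 cells had been grown with 10% fetal calf serum and kept for 1 week in adipogenic medium. During the 5 days in which the supernatants formed, 30 nM PMA, a phorbol ester, made the HL-60 cells of both arms macrophage-like, and both supernatants were diluted 2-fold. The knockdown was thus in the human donor cells, and the Nr4a transcripts measured were those of the mouse recipient cells, which carried no targeted gene.

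The NR4A proteins bind DNA as nuclear receptors do, but their ligand pocket is filled by side chains, so that their activity depends mainly on how much of the protein is made and on its modification. Their genes are immediate early genes, which are switched on within minutes to hours by growth factors, cytokines and cAMP without new protein synthesis. CREB, the factor that answers to cAMP, and MEF2 factors act on the Nr4a1 promoter in other cell types. In metabolic tissues such as liver, muscle and fat, NR4A receptors are known for effects on glucose and lipid genes.

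Each of the 3 promoters held TGACG, the core of the cAMP response element to which CREB binds, at 4 places on one strand or the other. The windows, from RefSeq on build GRCm38.p6, run from 250 bases before to 50 bases after the annotated start of each gene, and are shown because the genes share this element. They lie at chr15:101266596-101266895 on the plus strand for Nr4a1, chr2:57123954-57124253 on the minus strand for Nr4a2 and chr4:48045055-48045354 on the plus strand for Nr4a3. All are printed 5′ to 3′ along the gene, with TGACG and its reverse complement CGTCA in capitals.
Nr4a1: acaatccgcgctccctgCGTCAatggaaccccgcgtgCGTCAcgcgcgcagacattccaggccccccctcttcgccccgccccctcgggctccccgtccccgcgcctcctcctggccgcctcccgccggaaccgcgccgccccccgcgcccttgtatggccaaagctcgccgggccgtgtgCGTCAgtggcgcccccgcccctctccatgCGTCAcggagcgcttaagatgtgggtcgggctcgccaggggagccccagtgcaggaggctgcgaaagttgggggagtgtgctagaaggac
Nr4a2: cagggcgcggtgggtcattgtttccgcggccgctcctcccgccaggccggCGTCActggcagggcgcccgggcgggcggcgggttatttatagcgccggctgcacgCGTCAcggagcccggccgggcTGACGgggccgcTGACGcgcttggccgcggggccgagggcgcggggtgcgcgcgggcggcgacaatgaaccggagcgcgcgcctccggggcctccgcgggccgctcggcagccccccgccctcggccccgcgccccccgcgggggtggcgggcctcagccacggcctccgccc
Nr4a3: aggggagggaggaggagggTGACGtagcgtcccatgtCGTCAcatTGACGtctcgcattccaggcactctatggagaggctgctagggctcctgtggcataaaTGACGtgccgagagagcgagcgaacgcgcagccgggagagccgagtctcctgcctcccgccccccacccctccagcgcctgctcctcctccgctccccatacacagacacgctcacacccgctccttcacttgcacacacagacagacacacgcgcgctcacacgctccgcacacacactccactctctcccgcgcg
In Nr4a1 the elements began 233, 213, 69 and 40 bases before the start, and all 4 lay on the strand opposite to the gene. In Nr4a2 those at 200 and 144 bases lay on the opposite strand and those at 123 and 111 bases on the strand of the gene. In Nr4a3 the elements at 231, 205 and 147 bases lay on the strand of the gene and that at 213 bases on the other. The core nearest to the start was thus 40 bases away in Nr4a1, 111 in Nr4a2 and 147 in Nr4a3.

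Of the 32851 promoters of this length, 20.8% held TGACG on either strand at least once and 0.231% at least 4 times. The full palindrome TGACGTCA, which contains the core on both strands, was in none of the 3 windows and in 1.79% of all promoters. The NR4A monomer element AAAGGTCA was in none of them and in 1.51% of all. A TATA box, TATAAA, was in Nr4a2 alone, on the strand opposite to the gene and 164 bases before the start, and in 13.6% of all promoters. These windows were rich in G and C, which made up 72.3% of the bases in Nr4a1, 81.7% in Nr4a2 and 64.7% in Nr4a3, against a median of 52.7% over all promoters. A match of letters is a description, and factor binding was not measured.

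**Figure D1:**
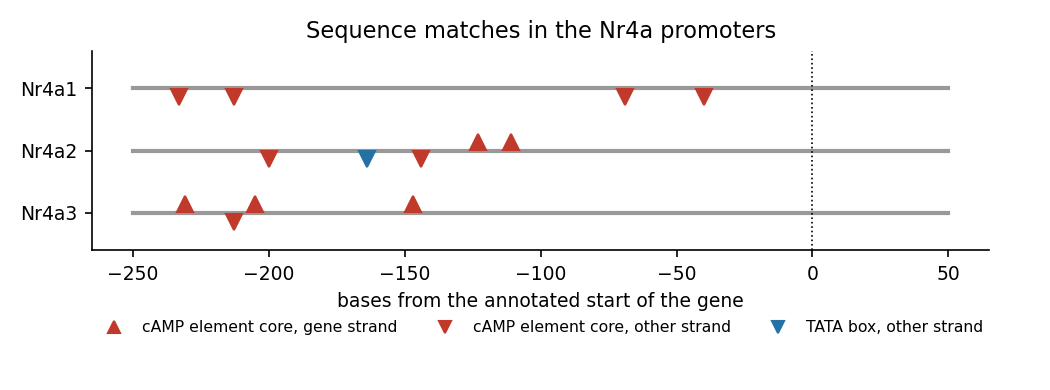
Positions of sequence matches in the promoters of the Nr4a genes, in bases from the annotated start. Triangles pointing up lie on the strand of the gene and those pointing down on the other strand. The element nearest to a start is that of Nr4a1, 40 bases before it.

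On each array 50.7% to 55.9% of 59305 non-control spots were well above background, none was saturated, and the 75th percentile of the signal was 478 to 621 units. The labels call the arrays of a group biological replicates but do not say whether they came from separate cultures, so the p-values given cover the spread between these samples alone. On the slide, columns 3 and 4 held the KD arrays and columns 1 and 2 the control arrays, and an effect of the column cannot be told apart from that of the supernatant. The control array 2 at 6 h stood apart, with 1.47% of its spots in bright patches, against 0% to 0.959% on the other arrays. The cells are labelled adipocytes, and 9 of 20 adipocyte markers exceeded background clearly on all arrays, while 9 did so on none, among them Adipoq, Cfd, Lep and Cd36. All 12 markers of preadipocytes and fibroblasts were above background on all arrays. In whole cultures, fewer cells of a type and less RNA per cell cannot be told apart. Of the macrophage and leukocyte markers 7 of 11 were above background on all arrays, and 4 were on none, among them Ptprc, Adgre1 and Tyrobp, which define these cells. The summed signal of these 7, in multiples of the 75th percentile, was 54.3 to 56.3 on the KD arrays and 43.9 to 46.3 on the control arrays at 3 h, and 39.6 to 42.5 on the KD arrays and 39.2 to 45.0 on the control arrays at 6 h. At 3 h 3 of the 7 were higher and 4 lower with KD supernatant. The brightest of them, Itgam, stood at 5.54 and 5.60 with KD supernatant against 5.26 and 5.20 with control supernatant at 3 h. None of the 7 passed at 3 h or at 6 h alone, where 0.244% and 2.28% of all genes and unnamed probes tested passed. Averaged over both times, where 2.16% of all passed as higher, Cd14 was higher by 0.47 (limma adjusted p = 0.0169). Of the 10 adipocyte markers tested, Plin4, a lipid droplet coat gene, was lower with KD supernatant by 0.68 at 6 h (limma adjusted p = 0.0218). Of all genes and unnamed probes tested, 0.682% passed as lower there. The part of these markers in the results below was not tested.

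Nr4a1, also known as Nur77, was the bright member of the family, and it was higher with KD supernatant at both times and lower at 6 h than at 3 h with either supernatant. At 3 h its processed signal was 12520 and 10170 units with KD supernatant, against 5196 and 5085 units with control supernatant. At 6 h the signal was 4495 and 5344 units with KD supernatant, against 1670 and 2376 units with control supernatant. All further levels are log2 signals minus log2 of the array's 75th percentile, so that 0 is the level below which 75% of spots lie. On this scale Nr4a1 stood at 4.60 and 4.37 with KD supernatant and at 3.40 and 3.20 with control supernatant at 3 h. At 6 h it stood at 3.05 and 3.20 with KD supernatant and at 1.81 and 1.93 with control supernatant. Every KD array was above every control array of its time, as for 20.4% of all probes kept at 3 h and 26.9% at 6 h, and the probe was well above background on all 8 arrays and outside any bright patch.

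The group means of Nr4a1 were 4.49 ± 0.16 with KD and 3.30 ± 0.14 with control supernatant at 3 h, and 3.12 ± 0.11 with KD and 1.87 ± 0.09 with control supernatant at 6 h (SD, n = 2 each). The KD arrays at 3 h were thus highest and the control arrays at 6 h lowest. The middle groups did not differ beyond their spread, since the higher KD array at 6 h and the lower control array at 3 h both stood at 3.20. 

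Between supernatants the log2 difference of Nr4a1, KD minus control, was 1.19 ± 0.12 at 3 h and 1.25 ± 0.12 at 6 h (SE of the limma model), which is 2.28-fold and 2.38-fold. Over both times it was 1.22 ± 0.08, or 2.33-fold. Of 25792 genes and unnamed probes tested, 39 had a larger positive difference at 3 h and 205 at 6 h. Nr4a1 was chosen with this difference known, so these values are a description without a test. It was the 1 of the 2 tested Nr4a genes past the threshold, an adjusted p under 0.05, at each time, and so were 0.244% of all genes and probes at 3 h and 2.28% at 6 h, from which nothing is read. The comparisons of time below use the same arrays as those of supernatant. The family was chosen by the signals of these arrays, so the p-values given below for its genes are no independent test.

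With time Nr4a1 fell in both supernatants. At 6 h with KD supernatant it was lower than at 3 h by 2.58-fold, a log2 difference of -1.37 ± 0.12 (limma adjusted p = 0.00062). With control supernatant it was lower by 2.69-fold, -1.43 ± 0.12 (adjusted p = 0.000495). No 6 h array of a supernatant reached a 3 h array of it. Falls were common, since 22.2% of all genes and probes passed as lower at 6 h with KD and 23.6% with control supernatant. In 33.8% of the 30105 probes kept, both 6 h arrays lay below both 3 h arrays in both supernatants. Larger falls than that of Nr4a1 were seen in 2.06% of genes and probes with KD and in 2.22% with control supernatant.

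The supernatant difference of Nr4a1 at 6 h minus that at 3 h was 0.07 ± 0.17 (limma adjusted p = 0.914), with a 95% interval of -0.35 to 0.49. The interval, not adjusted for the number of tests, gives the changes of this difference that these arrays, 2 per group, left possible. It does not give the smallest change that could be detected. Across all genes and probes this term passed in 0.00%, that is in 0 of 25792, and 2268 had an unadjusted p under 0.05.

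**Figure D2:**
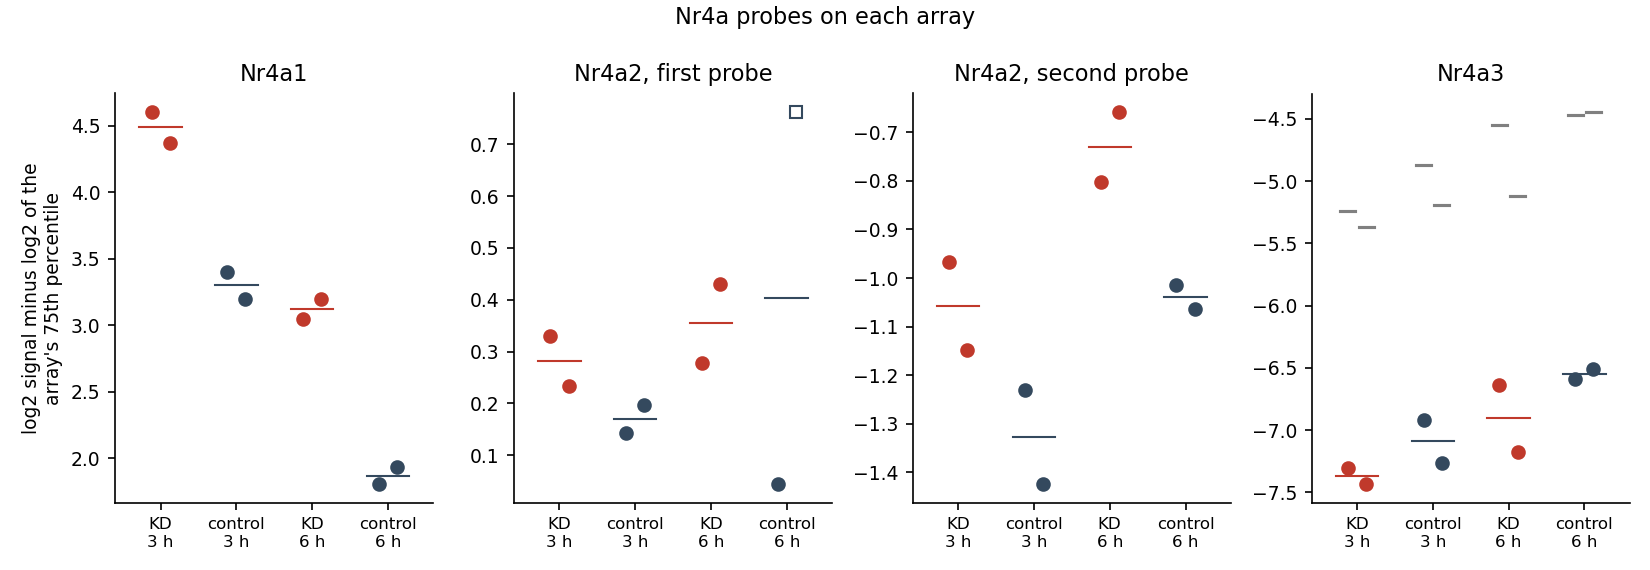
Log2 signal of each Nr4a probe minus log2 of the array's 75th percentile, on every array of the 4 groups, with KD left of control at each time. Dots are arrays and lines group means, the open square is the Nr4a2 spot in a bright patch on control array 2 at 6 h, and grey marks over Nr4a3 are the lowest signal well above background on each array. The vertical axes differ between panels, and Nr4a1 on the control arrays at 6 h, 1.81 and 1.93, is below its other arrays.

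Nr4a2, also known as Nurr1 and best known for its role in dopamine neurons, was measured by 2 probes that did not give the same picture, and neither differed between supernatants by as much as Nr4a1. The brighter probe, A_52_P494622, represents the gene in the tests. It stood at 0.33 and 0.23 with KD supernatant, against 0.14 and 0.20 with control supernatant at 3 h. At 6 h it stood at 0.28 and 0.43 with KD supernatant, against 0.04 and 0.76 with control supernatant. Both KD arrays lay above both control arrays at 3 h, as for 20.4% of all probes kept. At 6 h the control arrays lay on either side of the KD arrays.

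The highest of these values, 0.76 on control array 2 at 6 h, came from a spot in a bright patch of the slide, where the median spot of the surrounding 7 by 7 spots was 3.45 log2 units above its own median over the arrays. The KD minus control difference of this probe was 0.11 ± 0.23 at 3 h and -0.05 ± 0.23 at 6 h (SE). With spots in bright patches set to missing, which left control array 1 as the only control array at 6 h, the 6 h difference was 0.31. Without control array 1 at 6 h it was -0.41. With that spot kept, it was 0.14 with median scaling and 0.03 without KD array 1 at 6 h, so its sign was not settled. Nr4a2 did not pass between 6 h and 3 h with KD supernatant (0.07 ± 0.23, limma adjusted p = 0.817) or with control supernatant (0.23 ± 0.23, adjusted p = 0.468). Without control array 1 at 6 h, which leaves the array with the patch, the change under control supernatant became 0.59 and passed (limma adjusted p = 0.00902). The difference of the supernatant effects was -0.16 ± 0.32 (limma adjusted p = 0.885), with a 95% interval of -0.95 to 0.63.

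The dimmer probe of Nr4a2, A_55_P1983508, was in no bright patch and well above background on all 8 arrays. It stood at -0.97 and -1.15 with KD supernatant, against -1.23 and -1.43 with control supernatant at 3 h. At 6 h it stood at -0.80 and -0.66 with KD supernatant, against -1.01 and -1.06 with control supernatant. The KD arrays lay above the control arrays at both times, as they did for 10.1% of all probes kept. The KD arrays at 6 h were highest, the control arrays at 3 h lowest, and the KD arrays at 3 h overlapped the control arrays at 6 h.

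In a fit over all 30105 probes the KD minus control difference of the dimmer probe was 0.27 ± 0.11 at 3 h and 0.31 ± 0.11 at 6 h (SE). At 6 h this was close to the 0.31 of the brighter probe without bright patches, which rests on a single control array of 6 h. At 3 h both probes were positive. With time this probe was higher at 6 h, unlike Nr4a1, by 0.33 ± 0.11 with KD supernatant (limma adjusted p = 0.0535) and by 0.29 ± 0.11 with control supernatant (adjusted p = 0.0768). Neither passed, and the time course of one gene against the other was not tested. Over the 8 arrays, which share their groups, the Pearson correlation with Nr4a1 was -0.19 for the brighter probe and -0.06 for the dimmer one, and 0.29 between the 2 probes, given as descriptions.

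Nr4a3, also known as NOR-1, has 10 spots of 1 probe on each array and was not well above background on any of them. Its log2 signal lay between -7.43 and -6.51, below the lowest signal well above background on each array, which was -5.37 to -4.45. One of its spots was marked as an outlier by the scanner software and left out on KD array 2 at 3 h, KD array 1 at 6 h and control array 1 at 6 h. No fold is given and Nr4a3 was not among the genes tested, so that 2 of the 3 genes passed the filter on dim probes, each on every array.

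The genes whose profile over the 8 arrays was most like that of Nr4a1, among 1818 candidates, were Pvr (Pearson r = 0.994), Id1 (0.993), Ier2 (0.993), Maff (0.991) and Frmd4a (0.991). Candidates were named genes above background on every array whose group means spanned at least 1 log2 unit, and these are descriptions over arrays that share 4 groups. Id1 encodes an inhibitor of helix-loop-helix factors, Maff a small Maf transcription factor, Ier2 the product of an immediate early gene, Pvr an adhesion receptor and Frmd4a a scaffold protein. Ier2 had the same order of groups, with 0.56 and 0.56 under KD supernatant against -0.15 and -0.15 under control supernatant at 3 h. At 6 h Ier2 had -0.23 and -0.30 under KD supernatant against -1.17 and -1.08 under control supernatant. In Pvr, Id1, Maff and Frmd4a too, the means of KD at 6 h and control at 3 h were neighbours in the middle of the range. The supernatant difference at 3 h was 0.57 in Pvr, 0.68 in Id1, 0.71 in Ier2, 0.57 in Maff and 0.58 in Frmd4a, each smaller than the 1.19 of Nr4a1.

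**Figure D3:**
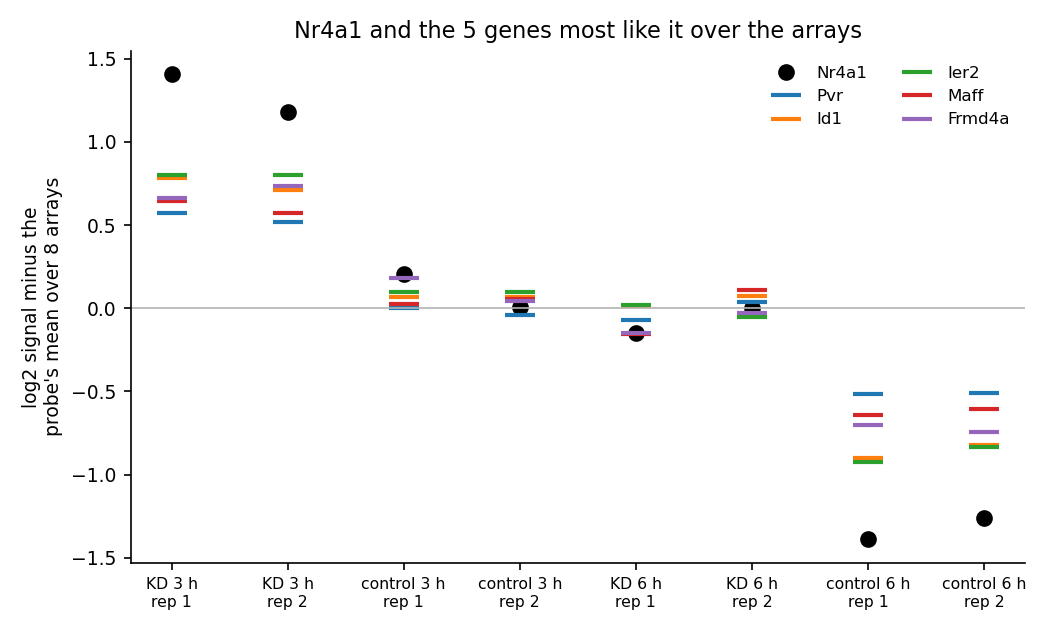
Log2 signal minus the probe's own mean over 8 arrays, for Nr4a1 (dots) and the 5 genes most like it (bars), array by array with KD left of control at each time. All 6 are highest on the KD arrays at 3 h and lowest on the control arrays at 6 h, and Nr4a1 has the widest span.

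For the brighter Nr4a2 probe the most like genes were Syn1 (0.908), Ccdc112 (0.888), Prkag3 (0.885), Kcnmb4 (0.883) and Armc9 (0.855), among 1819 candidates. The probes of Syn1, Ccdc112 and Armc9 were in bright patches on control array 2 at 6 h, as was that of Nr4a2, and the 5 genes were all highest on that array. For the dimmer probe, a choice made after the data were seen, they were Mfsd13a (0.951), Cyth4 (0.947), Igfbp3 (0.947), 1600025M17Rik (0.946) and Oit3 (0.943). Igfbp3 encodes a binding protein of insulin-like growth factors and Cyth4 an exchange factor for ARF proteins. The KD minus control difference at 6 h was 1.15 in Cyth4, 0.69 in Mfsd13a and 0.63 in Igfbp3, given without a test since these genes were picked for their profile on the same arrays.

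Among regulators known to act on Nr4a promoters, 0 of 19 tested passed between supernatants at 3 h, where 0.244% of all genes and probes passed, and 0 at 6 h, where 2.28% passed, so a list of this size would hold few calls at the shares seen over all. At 6 h the count stayed 0 under 13 of 21 alternatives. Among the rest, 3 passed with median scaling, 4 with a variance trend and 2 with probes above background on all arrays. The list of 21 holds CREB and its coactivators, MEF2 factors, the class II histone deacetylases that hold MEF2 back, and serum response factor with its partners. The median difference was -0.02 at 3 h and 0.11 at 6 h, against -0.02 and 0.00 over all genes and probes tested. Creb1, which encodes CREB, differed by 0.14 ± 0.13 at 3 h and by 0.61 ± 0.13 at 6 h (limma adjusted p = 0.0856 at 6 h). Mef2d differed by 0.27 ± 0.08 and 0.29 ± 0.08, Hdac5 by 0.08 ± 0.06 and 0.34 ± 0.06, and the CREB coactivator gene Crtc1 by -0.06 ± 0.06 and -0.25 ± 0.06. With time 8 of the 19 fell and 3 rose with KD supernatant, and 9 fell and 2 rose with control supernatant, where 22.2% and 23.6% of all genes and probes fell and 17.7% and 16.3% rose with KD and control supernatant. Srf, the gene of serum response factor, was lower at 6 h by -1.53 ± 0.06 with KD supernatant (limma adjusted p = 0.000114) and by -1.61 ± 0.06 with control supernatant (adjusted p = 0.000102), a fall like that of Nr4a1 in direction.

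Other genes that respond early to CREB differed between supernatants in several cases as Nr4a1 did, but the list did not move as one. Of 19 tested of 20, 3 were higher with KD supernatant at 3 h and none lower, where 0.225% of all genes and probes passed as higher and 0.0194% as lower. At 6 h 7 were higher and 1 lower, where 1.60% passed as higher and 0.682% as lower. The median difference of the list was 0.45 at 3 h and 0.25 at 6 h, against -0.02 and 0.00 over all. The members are early genes of which several were already known to differ in these data. Neither the counts nor the p-values of single members below are thus independent evidence of direction. The 3 h count was 0 when either array of either 3 h group or either KD array of 6 h was left out.

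Ptgs2, which encodes the prostaglandin synthase COX-2, came closest to Nr4a1 in size. Its log2 signal was 3.26 and 3.15 with KD supernatant against 2.06 and 1.98 with control supernatant at 3 h, and 2.10 and 2.22 with KD supernatant against 0.90 and 1.07 with control supernatant at 6 h. Both KD arrays of Ptgs2 lay above both control arrays at each time, as for 10.1% of all probes kept. Ptgs2 was higher with KD supernatant by 1.18 ± 0.09 at 3 h (limma adjusted p = 0.0244) and by 1.18 ± 0.09 at 6 h (adjusted p = 0.00819), and, like Nr4a1, it fell with time in both supernatants, by 1.04 in each. Fos, a subunit of the AP-1 factor, was higher by 0.95 ± 0.08 at 3 h (limma adjusted p = 0.0294) and by 0.89 ± 0.08 at 6 h (adjusted p = 0.0107). Ier2 was higher by 0.71 ± 0.06 at 3 h (limma adjusted p = 0.0335) and by 0.86 ± 0.06 at 6 h (adjusted p = 0.00784).

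At 6 h the others that were higher with KD than with control supernatant were Npas4, Junb, Egr1 and Bdnf. Npas4, an activity-regulated transcription factor gene, stood at -1.60 and -1.64 with KD supernatant against -3.68 and -4.19 with control supernatant. Only 1 of the 2 control arrays of 6 h had it above background, and the fitted difference was 2.31 ± 0.19 (limma adjusted p = 0.0085). Its difference at 3 h, 1.40 ± 0.19, was larger than the 1.19 of Nr4a1 but did not pass (limma adjusted p = 0.0715). Junb, another AP-1 subunit, was higher by 0.99 ± 0.10 (limma adjusted p = 0.0155), the zinc finger factor gene Egr1 by 0.85 ± 0.08 (adjusted p = 0.0125) and the neurotrophin gene Bdnf by 0.46 ± 0.07 (adjusted p = 0.0356).

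The list also held genes that did not pass between supernatants at either time, among them Fosb, Ppargc1a, Crem, Sik1 and Per1, named here after their values were seen. Fosb, an AP-1 subunit gene, differed by 1.09 ± 0.21 at 3 h and by -0.14 ± 0.21 at 6 h, and the coactivator gene Ppargc1a by -0.86 ± 0.20 and -0.64 ± 0.20. Crem, a CREB relative, differed by 0.09 ± 0.10 at 3 h and by 0.19 ± 0.10 at 6 h. Sik1, a kinase that curbs CREB coactivators, differed by -0.18 ± 0.08 and -0.26 ± 0.08, and the clock gene Per1 by 0.01 ± 0.10 and 0.10 ± 0.10. Gem, a small GTPase gene of the same list, was lower with KD supernatant by 0.42 at 6 h (limma adjusted p = 0.0356). Between supernatants CREB-responsive genes thus included members higher with KD, a member lower with it and members that did not pass. From 3 h to 6 h, 9 of the 19 fell and 4 rose with KD supernatant, and 10 fell and 4 rose with control supernatant. Of all genes and probes 22.2% and 23.6% fell, and 17.7% and 16.3% rose. Unlike Nr4a1, Bdnf rose by 1.25 with KD and by 1.27 with control supernatant (limma adjusted p = 0.000177 and 0.000156).

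**Figure D4:**
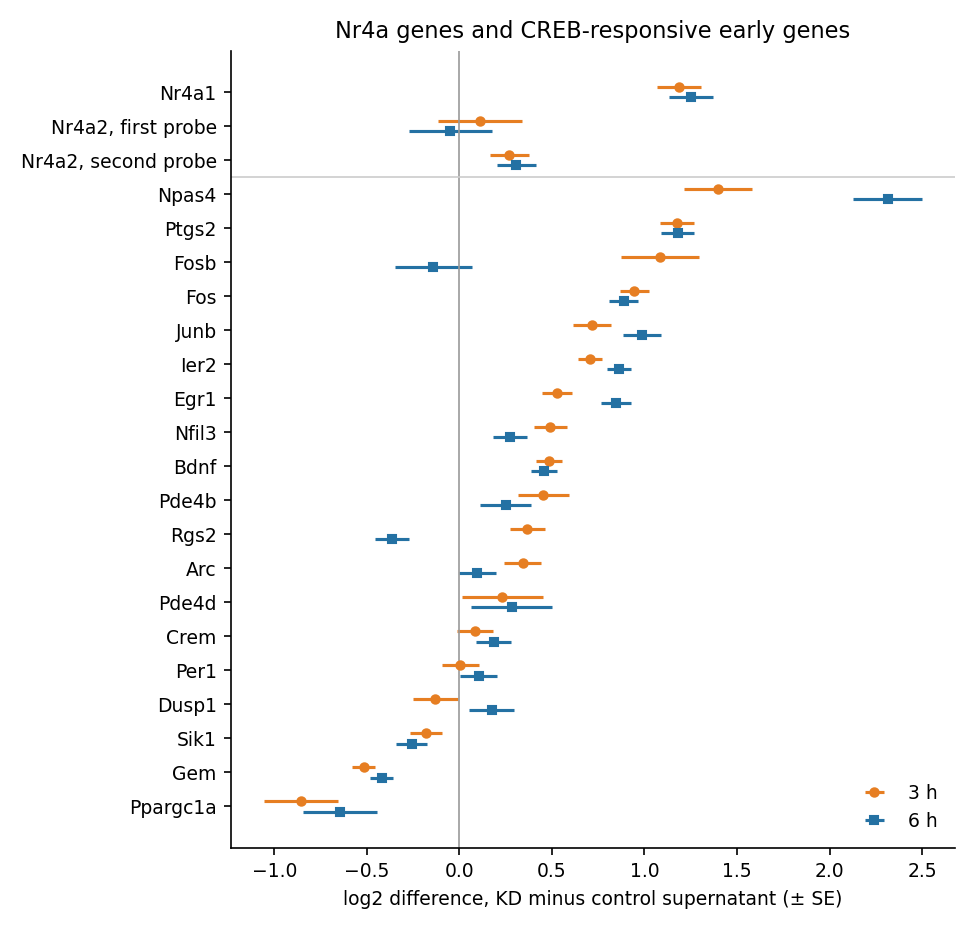
Log2 difference, KD minus control supernatant, with its SE from the limma model, at 3 h (circles) and 6 h (squares), for the Nr4a probes above the line and for the 19 tested CREB-responsive early genes below it, in the order of their difference at 3 h. At 3 h Npas4 lies highest at 1.40, above the 1.19 of Nr4a1. Ptgs2, Fosb and Fos lie near or somewhat below Nr4a1, Crem and Per1 lie near 0, and Ppargc1a lies lowest at -0.86. Fosb lies at -0.14 at 6 h.

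Of the 46 other nuclear receptors listed, 30 were tested, 25 of them above background on all arrays, and 11 receptors, among them Esr1 and Hnf4a, were on none. Between supernatants 0 of the 30 passed at 3 h and at 6 h, where 0.244% and 2.28% of all genes and probes passed. At 6 h the count stayed 0 under 18 of 21 alternatives, and among the rest 1 passed with median scaling and 2 with a variance trend. The median difference of the 30 was -0.03 at 3 h and -0.05 at 6 h. Averaged over both times, where 3.11% of all genes and probes passed, 2.16% as higher and 0.942% as lower, Nr1h3, the gene of the oxysterol receptor LXR alpha, was lower with KD supernatant by 0.29 (limma adjusted p = 0.0342). The averaged difference was 0.16 ± 0.05 in Rara, 0.31 ± 0.06 in Nr1d1 and -0.18 ± 0.05 in Nr2c1, and none of these passed.

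With time the receptors went both ways, and 39.9% of all genes and probes passed with either supernatant, 17.7% as higher with KD and 16.3% as higher with control supernatant. With KD supernatant 5 were higher and 9 lower at 6 h, and with control supernatant 5 were higher and 8 lower. Nr1d1 and Nr1d2, the REV-ERB repressors of the clock, came near the fall of Nr4a1. Nr1d1 was lower at 6 h by 1.45 with KD supernatant (limma adjusted p = 0.000214) and by 1.38 with control supernatant (adjusted p = 0.000225). Nr1d2 was lower by 1.32 (limma adjusted p = 0.000596) and by 1.26 (adjusted p = 0.00063). Nr1h3 was higher at 6 h by 1.12 with KD supernatant (limma adjusted p = 0.000194) and by 1.15 with control supernatant (adjusted p = 0.000173).

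**Figure D5:**
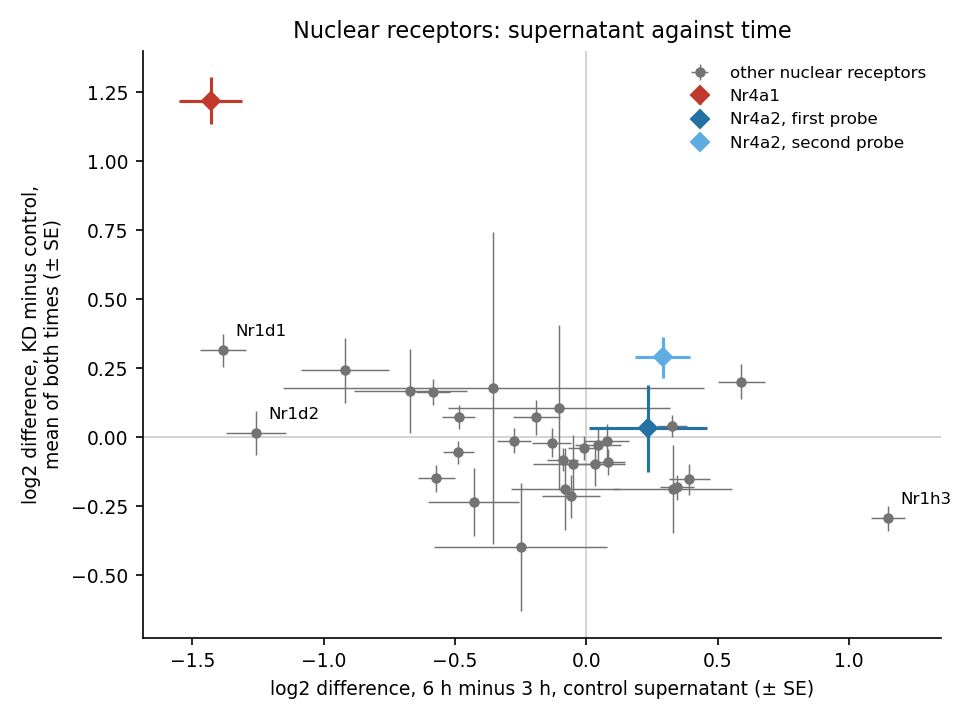
Each nuclear receptor by its log2 difference between 6 h and 3 h with control supernatant (horizontal) and its log2 difference between KD and control supernatant averaged over both times (vertical), with SE. Nr4a1, at -1.43 and 1.22, lies apart from the 30 others, and Nr1d1 and Nr1d2 share its fall with time. The brighter Nr4a2 probe lies among the rest. The dimmer one, at 0.29 and 0.29, lies at their upper edge, where only Nr1d1, at 0.31, is higher.

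Partners and cofactors of the NR4A receptors, with which they bind DNA or recruit histone-modifying complexes, passed between supernatants in 0 of 13 tested of 15 at 3 h and at 6 h, where 0.244% and 2.28% of all genes and probes passed. Their median difference was -0.04 at 3 h and 0.08 at 6 h. Rxra, whose product RXR alpha forms dimers with Nr4a1 and Nr4a2, differed by -0.10 ± 0.07 and -0.21 ± 0.07, the coactivator gene Ncoa1 by -0.18 ± 0.10 and -0.21 ± 0.10, and the demethylase gene Kdm1a by 0.04 ± 0.09 and 0.29 ± 0.09. With time 5 fell and 1 rose with KD supernatant, and 7 fell and none rose with control supernatant, beside the same shares of all genes and probes, 22.2% and 23.6% for falls. Rxra was lower at 6 h by 0.68 with KD supernatant (limma adjusted p = 0.00103) and by 0.57 with control supernatant (adjusted p = 0.00182).

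Of 25 genes reported as NR4A targets in other cell types, 16 were tested, and 7, among them Pomc, Ucp1 and Fasl, were above background on no array. None passed at 3 h, and 2 were higher and none lower with KD supernatant at 6 h, where 1.60% of all genes and probes passed as higher and 0.682% as lower. Nfkbia, which encodes an inhibitor of NF-kB, was higher by 0.40 ± 0.06 (limma adjusted p = 0.0438), and Spp1, the osteopontin gene, by 0.64 ± 0.10 (adjusted p = 0.0392). The list's median was 0.00 at 3 h and -0.16 at 6 h, and 12 of the 16 differences at 6 h were negative. The number past the threshold at 6 h was 0 to 3 with 1 array left out, 0 with quantile normalization and 1, a lower one, with the replicate block. Ddc, the enzyme that makes dopamine, differed by -0.19 ± 0.11 at 3 h and -0.54 ± 0.11 at 6 h, and the death protein gene Bcl2l11 by 0.41 ± 0.11 and 0.13 ± 0.11, neither passing.

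With time 3 of the 16 targets were higher and 5 lower at 6 h with KD supernatant, and 4 were higher and 4 lower with control supernatant. Of all genes and probes 17.7% were higher and 22.2% lower with KD supernatant, and 16.3% were higher and 23.6% lower with control supernatant. Ikzf2, the Helios factor gene that NR4A receptors act on in T cells, was higher at 6 h by 2.86 ± 0.19 with KD supernatant (limma adjusted p = 0.000263) and by 3.00 ± 0.19 with control supernatant (adjusted p = 0.000224). Star, the cholesterol carrier gene of steroid-making cells, was lower at 6 h by 1.40 (limma adjusted p = 0.000706) and by 1.03 (adjusted p = 0.00186).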

How the data were processed

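Samples were grouped by their labels. In the scanner files the authors deposited, each spot has a background-subtracted, detrended processed intensity on a linear scale, and the submitters' processing notes name Agilent Feature Extraction 10.7.3.1 as its source. A deposited table of log2 values differed from log2 of that intensity by 1 constant per array, was not centred per gene and served as an alternative. What the constants stand for is unknown. Its column medians were -4.23 and -4.24 (KD, 3 h), -4.16 and -4.18 (control, 3 h), -4.12 and -4.23 (KD, 6 h) and -3.96 and -4.06 (control, 6 h).

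Outlier spots were dropped, each array's 75th percentile was subtracted on the log2 scale, and a probe's spots were averaged. Of 55681 probes, 27235 were named by RefSeq transcript (GRCm38.p6, names only), 13 by symbol and 7 by synonym. Probes were kept where both arrays of 1 group or more exceeded background clearly, and the brightest by mean represented its gene, leaving 25792 genes and unnamed probes. Means of the 4 groups were modelled in limma 3.58.1 (R 4.3.3), with Benjamini-Hochberg adjustment over all of them and a threshold of 0.05. The script was tested on simulated data. The number of arrays limits the precision.

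The members, gene lists and motifs were chosen with earlier results of these data known. Named genes were, per list, up to 4 with the smallest p of the averaged supernatant difference, members that passed a test, and the 5 genes most like each receptor. Adipocyte, preadipocyte and fibroblast, macrophage and leukocyte, and endothelial and muscle markers were checked as well. Of the 12 endothelial and muscle markers 6 were above background on all arrays and 6 on none. Alternatives were other scalings and background corrections, filters, probe choice, masking of bright patches, array weights, a variance trend, a replicate block, the arrays of each time alone and leaving out each array. Same-numbered arrays did not deviate together, with correlations of -0.05 to 0.09 between groups over 25714 genes. Values of a few list members that the rule for named genes would name are not reported here.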

Additional observations from a re-analysis of the deposited data

How the results depend on the processing

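Nr4a1 kept the sign of its supernatant and time differences under every alternative run. Its 6 h supernatant difference was 1.44 with median scaling, which moved the median of all genes at 6 h to 0.19, so that 1.25 remained above it. Nr4a1 passed in both time comparisons under all 13 alternatives that left out no single array. Between supernatants it passed under 8 of these 13 at 3 h and under 10 at 6 h. Nothing is read from those counts, since Nr4a1 was chosen with this difference known. With 1 array left out its supernatant difference was 1.07 to 1.30 at 3 h and 1.18 to 1.33 at 6 h. For Nr4a2 at 6 h the difference was 0.31 with bright patches missing, which left a single control array. It was 0.31 with the other probe, an alternative chosen after seeing the data, and -0.41 to 0.31 with 1 array left out. With 1 array left out its change with time under control supernatant was -0.13 to 0.59.

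The number of genes and probes passing between supernatants at 3 h, 63, was 25 with median scaling, 128 with normexp, 193 with probes above background on all arrays, 310 with array weights and 289 with a variance trend. It was 0 without scaling, without the filter, with the replicate block and with the 4 arrays of 3 h alone, where 1295, 3128, 2765 and 3575 had an unadjusted p under 0.05. At 6 h 589 became 1067 with median scaling, 87 without scaling, 18 without the filter, 190 with array weights, 1183 with the trend, 220 with the replicate block and 0 with the 4 arrays alone, where 3039 had an unadjusted p under 0.05. The split of higher and lower calls at 6 h was 413 and 176, against 964 and 103 with median scaling and 47 and 40 without scaling. Without scaling 5498 passed with time under KD and 5734 under control supernatant. The difference of effects passed in 6 without scaling, 1 with quantile normalization, 4 with probes above background on all arrays and 6 with the trend.

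With 1 array left out, 0 to 35 passed at 3 h, 128 to 1955 at 6 h, 6703 to 11863 and 7193 to 10359 with time under KD and control supernatant, and 0 to 294 for the difference. The 1955 came without control array 2 of 6 h. Of the CREB-responsive genes, 3 at 3 h became 0 with median scaling, without scaling, without the filter, with the replicate block and with the 4 arrays alone, 7 with probes above background on all arrays, 9 with array weights and 10 with the trend. At 6 h 8 became 1 without scaling, 0 without the filter, 5 with the replicate block and 0 with the 4 arrays alone. With 1 array left out they were 0 to 3 and 2 to 8. The cause of these changes was not tested, apart from the smaller number of arrays or the other set of probes that some alternatives use. Numbers did not pair the arrays. With the replicate block Nr4a1 was no longer past the threshold between supernatants at 3 h, from which nothing is read. The block changed no call of Nr4a1 or Nr4a2 with time. Normexp used median spot and median background intensity. A probe near background, such as that of Nr4a3, has only an upper bound.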
